A study of Mus musculus with 3 samples.

Results

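Arginine can be split to ornithine and urea by the arginases, oxidised to nitric oxide and citrulline by the nitric oxide synthases, rebuilt from citrulline, or taken up from outside the cell. The genes described here are the 10 genes of these steps: Arg1, Arg2, Nos1, Nos2, Nos3, Ass1, Asl, Slc7a1, Slc7a2 and Odc1. They were chosen by symbol for their role, with earlier results of these data known. Each was represented by 1 probe set with that symbol alone, out of 22180 genes measured this way. Their RNA was measured in retinae of C57 mice on 3 Affymetrix arrays, with 1 array per group, and each array held the pooled RNA of 5 to 6 retinae. One array held retinae taken 2 days after Cav1-shRNA, a short hairpin RNA named for the caveolin-1 transcript, had been put into the vitreous. Another held retinae taken 2 hr after intravitreal cavtratin, a cell-permeable peptide with the scaffolding domain of caveolin-1. The control array held retinae taken 2 hr after intravitreal AP, an abbreviation that the labels leave unexplained. All 3 groups had an injected eye and no uninjected retina was among them. The labels give neither the age nor the sex of the mice, nor the sequence or carrier of the hairpin.

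Both enzyme classes draw on one substrate, so arginase and nitric oxide synthase can compete for arginine within a cell. Neuronal and endothelial nitric oxide synthase are switched on by calcium and calmodulin, while the inducible enzyme is controlled mainly through its transcription and is typical of activated myeloid cells. Caveolin-1 binds endothelial nitric oxide synthase and holds it inactive, and peptides with the scaffolding domain are used as inhibitors of nitric oxide synthase. In the retina nitric oxide is made by amacrine cells, by vascular endothelium and, in inflammation, by glia and invading leukocytes.

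The values are the deposited ones, read as log2 expression per probe set, so a difference of 1 is a 2-fold difference. A gene was called when 2 arrays differed by at least 2-fold and the higher of them was at or above a floor of 6.50, the median level of all probe sets with 1 symbol. With 1 array per group there is no replicate error and no test, and each difference compares 2 arrays and not the conditions. As a measure of the spread between probe sets, 280 genes with several probe sets were used. It was taken within the same 2 arrays, so it does not hold the variation between arrays or between pools of retinae. Within one gene the differences lay apart by at most 0.35 in cavtratin against AP control, 0.30 in Cav1-shRNA against AP control and 0.32 in Cav1-shRNA against cavtratin in 95% of these genes. Many values were exactly equal between arrays: of the 11510 genes that reached the floor in at least 1 array, 43.2% had one value in all 3. Such a tie shows no difference in the deposited values and does not show an equal amount of RNA. Cav1 itself, the gene named by the hairpin, was at 8.26 in all 3 arrays, so the array labelled Cav1-shRNA showed no lower Cav1 value. Rod photoreceptor markers, 8 of 10 measured, lay between 10.11 and 13.19 on every array.

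Arg1 and the inducible synthase gene Nos2 were higher in cavtratin and in the array labelled Cav1-shRNA than in AP control, and both were highest in cavtratin. The other 8 genes differed by at most 0.42 between any 2 arrays, and Nos1, Ass1 and Asl were exactly equal in all 3.

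**Figure D1:**
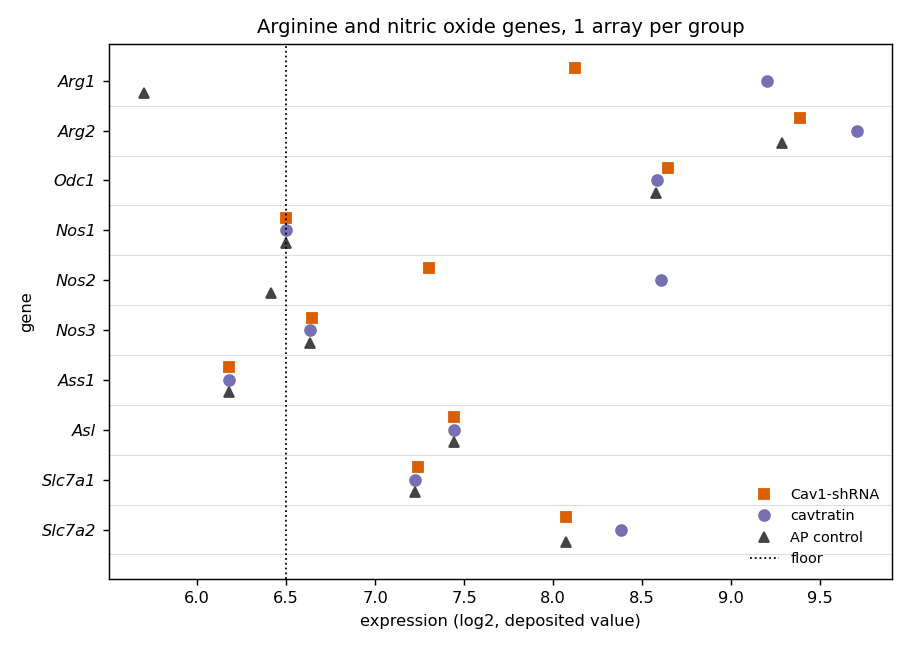
Expression on the log2 scale (horizontal axis) of the 10 genes (rows) in Cav1-shRNA (squares), cavtratin (circles) and AP control (triangles), 1 array each, with the floor of 6.50 as a dotted line. Arg1 and Nos2 lie below the floor in AP control and above it in both other arrays, while the markers of Nos1, Ass1 and Asl stand at one value.

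Arg1 encodes arginase 1, the cytosolic enzyme known from the urea cycle of liver and from activated macrophages and neutrophils. Its probe set, 17239845, had a value of 8.12 in Cav1-shRNA, 9.20 in cavtratin and 5.70 in AP control. It was the gene with the widest range of the 10, and the AP control value was the only one below the floor. Arg1 was 3.50 higher in cavtratin than in AP control, or 11.3-fold, and ranked 7 from the top of the 11477 genes that reached the floor. In the array labelled Cav1-shRNA it was 2.42 higher than in AP control, or 5.35-fold, and ranked 2 of 11433. The AP control value lies below the floor and comes from 1 array, so both folds are imprecise and can be too small or too large.

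Arg2 encodes arginase 2, the mitochondrial enzyme, which is the arginase of most tissues outside liver. It was at 9.39 in Cav1-shRNA, 9.71 in cavtratin and 9.29 in AP control. All 3 values lay above the floor and their order matched that of Arg1, over a much narrower range. The difference between cavtratin and AP control was 0.42, somewhat past the 0.35 seen between probe sets of one gene, and 3.35% of genes differed by at least that much. Between Cav1-shRNA and AP control it was 0.10, within the spread between probe sets, and 13.8% of genes differed by at least as much. The difference of Arg1 exceeded that of Arg2 by 3.08 in cavtratin and by 2.32 in Cav1-shRNA, each against AP control.

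Odc1 encodes ornithine decarboxylase, which turns the ornithine released by arginase into putrescine, the first polyamine. Its values were 8.65 in Cav1-shRNA, 8.58 in cavtratin and 8.58 in AP control. The differences from AP control were 0.069 in Cav1-shRNA and 0.0047 in cavtratin, both within the spread between probe sets, and the sign of the second turned with the scaling. No value of Odc1 therefore followed that of Arg1 beyond this spread.

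Nos2 encodes inducible nitric oxide synthase, the high-output enzyme of activated macrophages. Its probe set, 17253707, was at 7.30 in Cav1-shRNA, 8.61 in cavtratin and 6.41 in AP control. As for Arg1, the AP control value alone was below the floor, and the order of the arrays was the same. Nos2 was 2.19 higher in cavtratin than in AP control, or 4.57-fold, a size that 0.357% of genes reached in either direction. In the array labelled Cav1-shRNA it was 0.89 higher than in AP control, or 1.85-fold, short of the 2-fold call, and 0.639% of genes differed by at least that much. The AP control value limits these folds in the same way as for Arg1.

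Nos1, the neuronal enzyme of amacrine cells, was at 6.50 in all 3 arrays, which is the floor itself. Nos3, the endothelial enzyme that caveolin-1 holds inactive, was at 6.64 in Cav1-shRNA, 6.63 in cavtratin and 6.63 in AP control. The synthase that the scaffolding peptide is known to inhibit thus had a transcript value that differed by 0.012 at most. Enzyme activity was not measured on these arrays. Among the synthases, only Nos2 was called in a comparison, and it was called in 2 of the 3 comparisons.

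Ass1 and Asl encode argininosuccinate synthase and lyase, which together rebuild arginine from the citrulline left by nitric oxide synthesis. Ass1 was at 6.18 and Asl at 7.44 in all 3 arrays. Ass1 lay below the floor throughout, and it was the only 1 of the 10 genes that never reached it. No step of citrulline recycling differed between the deposited arrays.

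Slc7a1 and Slc7a2 encode the cationic amino acid transporters CAT1 and CAT2, which carry arginine, lysine and ornithine across the plasma membrane, and CAT2 is known to supply inducible nitric oxide synthase in macrophages. Slc7a1 was at 7.24 in Cav1-shRNA, 7.23 in cavtratin and 7.23 in AP control. Slc7a2 was at 8.07 in Cav1-shRNA, 8.38 in cavtratin and 8.07 in AP control. Cavtratin alone stood apart for Slc7a2, by 0.31, which is within the spread between probe sets, and 4.43% of genes differed from AP control by at least as much.

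**Figure D2:**
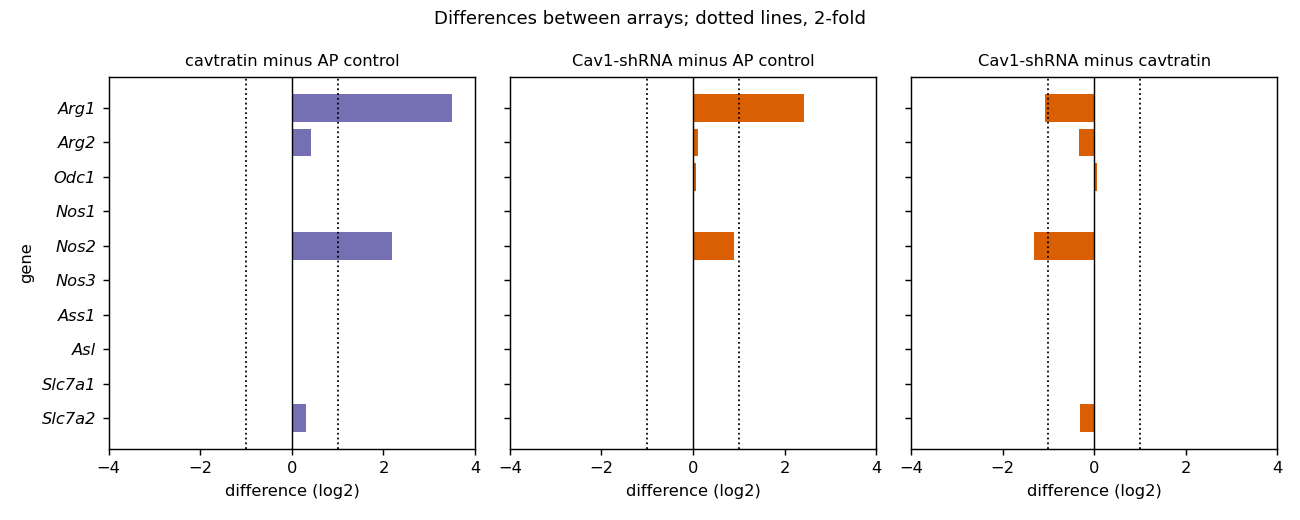
Difference on the log2 scale (horizontal axis) of each of the 10 genes (rows) in the 3 comparisons (panels), with dotted lines at 2-fold. Arg1 and Nos2 have the longest bars in every panel, with Nos2 at 0.89 in Cav1-shRNA minus AP control, short of the line.

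Cavtratin against AP control compares the 2 agents at the same time, 2 hr after injection. In this comparison 2 of the 10 genes, Arg1 and Nos2, were at least 2-fold higher, against 1.36% of the 11477 genes that reached the floor. None was at least 2-fold lower, against 0.0958% of those genes. The 10 genes were chosen with earlier results known, so such shares describe the set and test nothing, here and in the other comparisons. Of the 10 genes 5 lay above 0, 0 below and 5 at exactly 0, with a median difference of 0.0023. Among all genes that reached the floor, a set without Ass1, the median was 0 and 54.5% were at exactly 0.

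Cav1-shRNA against AP control sets 2 days against 2 hr as well as a hairpin against AP, and time and agent cannot be told apart. Here 1 of the 10 genes, Arg1, was at least 2-fold higher, against 0.341% of 11433 genes, and 0 were at least 2-fold lower, against 0.122%. The median difference was 0.015, with 6 genes above 0, 0 below and 4 at exactly 0. Among all genes that reached the floor, again without Ass1, the median was 0 and 53.0% were at exactly 0. Both comparisons share the AP control array, so a deviation of that array alone would move Arg1 and Nos2 the same way in each.

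The array labelled Cav1-shRNA was set against cavtratin without use of AP control. This again sets 2 days against 2 hr, so time and agent cannot be told apart here either. Arg1 was at −1.08 and Nos2 at −1.30, so both were at least 2-fold lower in Cav1-shRNA, and all values involved lay above the floor. These are 2 of the 10 genes, against 0.785% of 11472 genes at least 2-fold lower, and 0 of the 10 were at least 2-fold higher, against 0.0349%. Arg2 was at −0.32 and Slc7a2 at −0.31, close to the 0.32 seen between probe sets of one gene. The differences of Arg1 and Nos2 lay 0.22 apart here, within that spread, so their order was not read. The median over the 10 genes was 0, as over all genes that reached the floor.

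The enzymes, partners and targets around these genes were followed in 8 lists, also chosen with earlier results known. Of their 92 genes 81 were measured. In cavtratin against AP control 56 of the 81 reached the floor, and 3 of these were at least 2-fold higher, against 1.36% of all genes that reached it, and 0 lower. In Cav1-shRNA 0 were called in either direction, among 56 that reached the floor against AP control and 55 against cavtratin. Over all genes the shares were also small, at 0.341% higher and 0.122% lower against AP control. Against cavtratin they were 0.0349% higher and 0.785% lower. The median over the 81 genes, with those below the floor, was 0 in all 3 comparisons. It was also 0 over all genes that reached the floor.

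Polyamine genes, 9 of 12 measured, held 1 of those calls. Smox, spermine oxidase, which turns spermine back to spermidine and releases hydrogen peroxide, was at 8.11 in Cav1-shRNA, 8.91 in cavtratin and 7.69 in AP control. It was 1.22 higher in cavtratin and 0.42 higher in Cav1-shRNA than in AP control, the order of the arrays being that of Arg1. Oaz1, ornithine decarboxylase antizyme 1, was at −0.26 in cavtratin and −0.27 in Cav1-shRNA, and Sat1, which acetylates polyamines for export, at 0.25 and 0.10. Smox was thus the only called gene of the list. Between cavtratin and AP control 6 of the 9 genes were exactly equal, among them Oaz3, which lay below the floor. Of all genes that reached the floor 54.5% were equal.

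The cofactor of nitric oxide synthase, tetrahydrobiopterin, is made in steps that begin with Gch1, GTP cyclohydrolase 1. Gch1 was below the floor, at 5.31 in Cav1-shRNA, 5.35 in cavtratin and 5.35 in AP control. Of 6 measured genes of this list 0 were called in any comparison, and the largest difference from AP control was that of Pcbd1, a recycling enzyme, at −0.15 in cavtratin. Nitric oxide synthase partners and the enzymes that clear methylarginine inhibitors, 12 of 15 measured, differed by at most 0.11, the value of Dynll1, a dynein light chain that binds neuronal nitric oxide synthase, at −0.11 in Cav1-shRNA. Ddah1, which breaks down asymmetric dimethylarginine, was at 9.98 in all 3 arrays. Neither cofactor supply nor the partners therefore showed a difference near that of Nos2 itself.

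Downstream, nitric oxide acts on soluble guanylate cyclase. Its subunit gene Gucy1a1 was at 10.11 in all 3 arrays, and Gucy1b1 was at 9.75 in Cav1-shRNA, 9.59 in cavtratin and 9.80 in AP control. Of 11 measured genes of the receptor and cyclic GMP list 0 were called. Vasp, an actin regulator phosphorylated by cyclic GMP-dependent kinase, had the largest difference, at 0.69 in cavtratin and 0.079 in Cav1-shRNA, each against AP control. The list of ornithine, citrulline, proline and creatine enzymes, 12 of 14 measured, had 0 calls and a largest difference of −0.12, that of Otc, below the floor in all arrays. Of the other cationic amino acid transporters, 10 of 10 measured, 0 were called, and Slc7a5, the large neutral amino acid transporter LAT1, was highest at 0.13 in Cav1-shRNA.

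Transcription factors known to act on Arg1 or Nos2, 10 of 12 measured, held 1 call. Stat6, which carries interleukin-4 signals to the Arg1 gene in macrophages, was at 7.17 in Cav1-shRNA, 7.74 in cavtratin and 6.64 in AP control. It was 1.10 higher in cavtratin and 0.53 higher in Cav1-shRNA than in AP control. Cebpb, a factor that acts on both genes in macrophages, was 0.71 higher in cavtratin and 0.14 in Cav1-shRNA, short of the call. Irf1, an interferon-induced factor needed for Nos2 induction, was at 7.05 and Hif1a, the oxygen-regulated factor, at 11.61 in all 3 arrays.

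Arg1 is often read with other genes of alternatively activated macrophages, and 11 of 11 of these were measured. Il4ra, the interleukin-4 receptor chain, was at 7.92 in Cav1-shRNA, 8.53 in cavtratin and 7.16 in AP control, 1.37 higher in cavtratin and 0.76 higher in Cav1-shRNA than in AP control. It was the only called gene of the list. Chil3, Retnla, Mrc1, Clec10a, Mgl2 and Cd163, which mark that state, were below the floor in all arrays and could not be called. Ccl17, a chemokine of that state, was at −0.83 in cavtratin and −0.90 in Cav1-shRNA against AP control. Egr2 was at −0.43 in cavtratin and −0.19 in Cav1-shRNA.

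**Figure D3:**
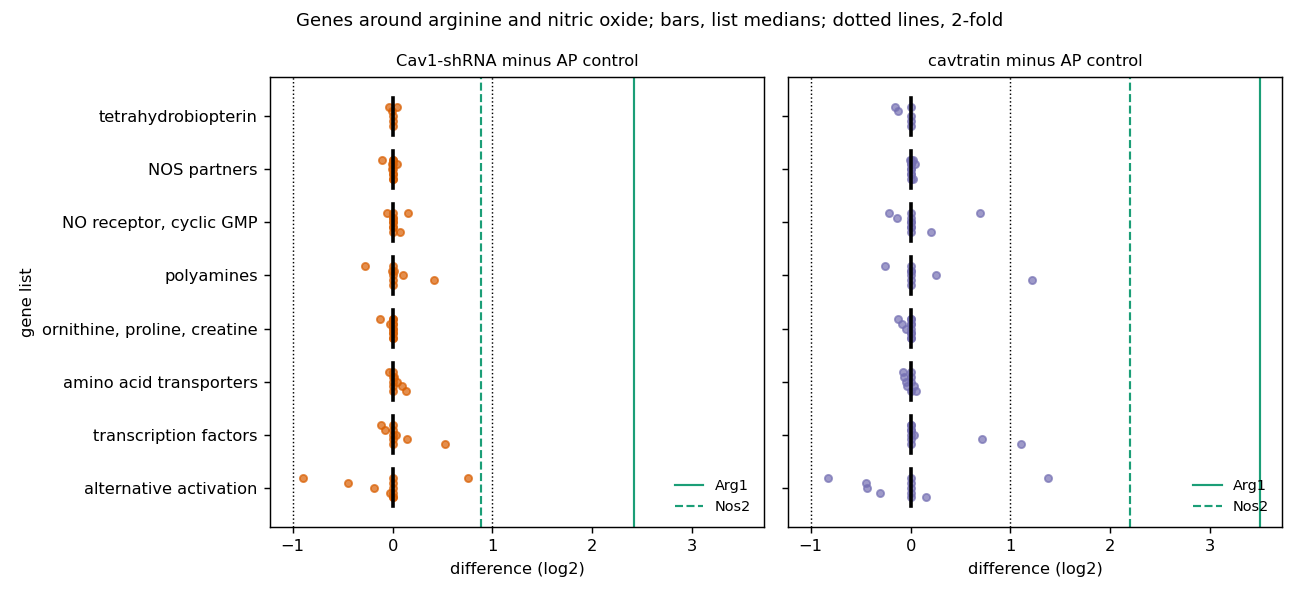
Difference from AP control on the log2 scale (horizontal axis) of each measured gene (points) in 8 lists (rows), for Cav1-shRNA and cavtratin (panels), with list medians as bars, dotted lines at 2-fold and green lines at Arg1 and Nos2. All medians stand at 0, and in cavtratin 3 points, Smox, Stat6 and Il4ra, lie past 2-fold.

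Many markers of myeloid cells were higher than in AP control where Arg1 and Nos2 were, but not all of them in the same order of arrays. In bulk retina more cells of a type and more RNA per cell cannot be told apart. Of 14 microglia and macrophage markers, 12 reached the floor in each comparison with AP control. Cavtratin had 6 that were called as higher, against 1.36% of all genes that reached the floor, Cav1-shRNA had 3, against 0.341%, and 0 were called as lower in either. The mean level of that list was 7.80 in Cav1-shRNA, 8.08 in cavtratin and 7.21 in AP control. Its median difference from AP control had the other order, at 0.68 in Cav1-shRNA and 0.58 in cavtratin. Cd14, a lipopolysaccharide co-receptor, was 2.64 higher in cavtratin and 0.58 higher in Cav1-shRNA, and Fcer1g, a signalling chain of Fc receptors, 1.85 and 1.09. The other called markers were Itgam at 1.68 and 0.83, Mpeg1 at 1.64 and 1.21, Cd68 at 1.58 and 1.07 and Tyrobp at 1.38 and 0.77. Of the 14 markers 7 were lower in Cav1-shRNA than in cavtratin, as Arg1 and Nos2 were, 5 were higher and 2 equal. Unlike Arg1 and Nos2, Ctss, a lysosomal cathepsin, was 0.53 higher in Cav1-shRNA than in cavtratin, C1qa, a complement component, 0.41, Cx3cr1, the fractalkine receptor, 0.14 and Adgre1, a macrophage surface receptor, 0.13. P2ry12, a receptor of resident microglia, was at 6.87 in all 3 arrays, and Aif1 and Tmem119 were below the floor in each.

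Of 15 measured neutrophil and monocyte markers, 9 reached the floor in cavtratin against AP control and 6 of these were called as higher, beside the 1.36% of all genes. In Cav1-shRNA against AP control 6 reached it and 2 were called as higher, beside 0.341%, and 0 were called as lower in either comparison. The mean level was 6.36 in Cav1-shRNA, 6.91 in cavtratin and 5.95 in AP control, and its markers differed from AP control by a median of 0.24 in Cav1-shRNA and 0.60 in cavtratin, both in the order of Arg1. S100a8, a calcium-binding protein of neutrophils, was 3.74 higher in cavtratin and 1.46 higher in Cav1-shRNA. Csf3r was 1.96 and 0.56 higher in these arrays, and Cxcr2 1.49 and 0.23. Retnlg was 1.95 and 0.34 higher, Mmp8 1.86 and 0.95 and S100a9 1.69 and 0.25, each above the floor in cavtratin only. Ly6c2, a surface protein of inflammatory monocytes, went the other way between the 2 arrays, at −0.43 in cavtratin and 1.49 in Cav1-shRNA. The granule genes Ngp, Camp, Elane and Mpo, together with Ly6g and Ccr2, were below the floor in all arrays. The part of these cells in the Arg1 and Nos2 differences was not tested.

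Of 12 lens markers 9 reached the floor in cavtratin against AP control, and 6 of these were called as higher, beside 1.36% of all genes. The median over the 12 was 1.04. All 6 were crystallins: Cryaa, Cryab, Cryba1, Cryba2, Cryba4 and Crygs. Of the lens markers that are not crystallins, Mip was at −0.059, and Bfsp1 and Bfsp2 were below the floor in all arrays. Cryaa was at 9.18 and Cryab at 9.71 in AP control. In Cav1-shRNA against AP control 7 reached the floor and 0 were called, beside 0.341% of all genes higher and 0.122% lower, with a median of −0.0099. The part of lens RNA in the Arg1 and Nos2 differences was not tested. Of 6 liver markers, tissue in which Arg1 is abundant, 0 were called and 5 lay below the floor in every array. The exception was Ttr, at 10.26 in Cav1-shRNA, 10.37 in cavtratin and 10.26 in AP control. Endothelial markers, the cells of Nos3, had a median difference from AP control of 0.20 in Cav1-shRNA and 0.070 in cavtratin over 12 genes, with 0 called. Amacrine markers, the cells of Nos1, had a median of 0 in both over 10 genes, and so had Muller glia in cavtratin, with 0.096 in Cav1-shRNA.

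**Figure D4:**
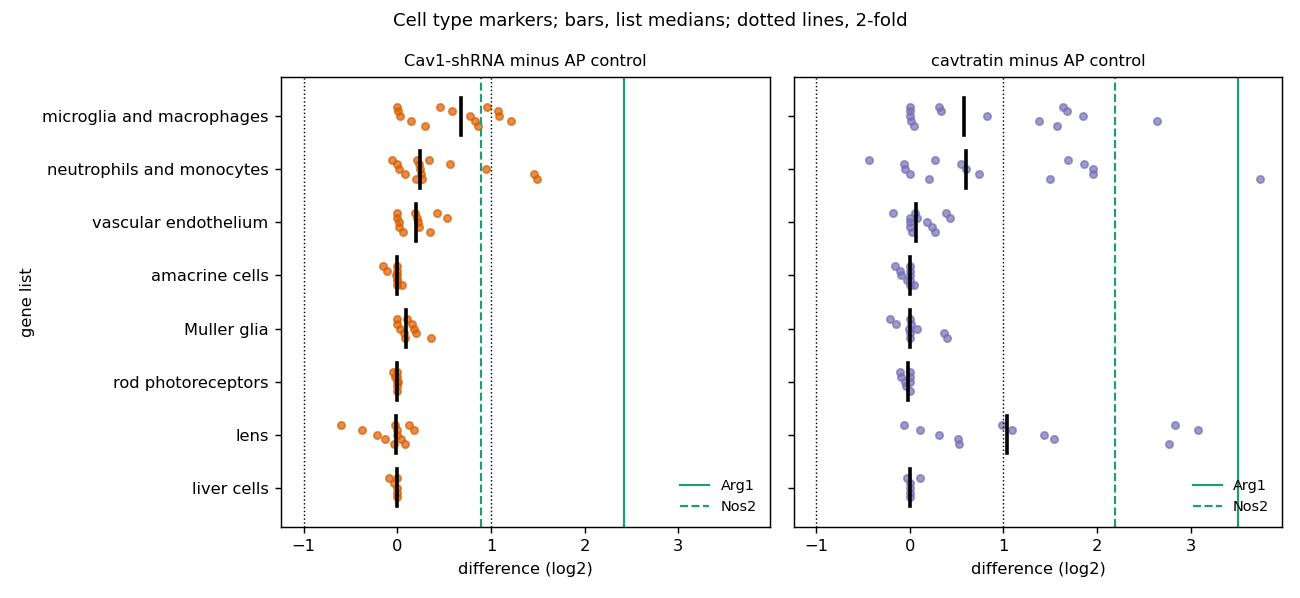
Difference from AP control on the log2 scale (horizontal axis) of each measured marker (points) in 8 cell type lists (rows), for Cav1-shRNA and cavtratin (panels), with list medians as bars, dotted lines at 2-fold and green lines at Arg1 and Nos2. Both myeloid lists spread to the right in both panels, and lens markers in the cavtratin panel, with a median of 1.04.

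The genes with the pattern most like Arg1 and Nos2 were sought among 11501 genes at or above the floor in at least 1 array, by Euclidean distance of the differences from AP control over the 3 arrays. Nearest to Arg1 was Slpi, a secreted inhibitor of leukocyte proteases, at a distance of 0.22. It was at 8.66 in Cav1-shRNA, 10.04 in cavtratin and 6.40 in AP control. Saa3, an acute-phase serum amyloid, followed at 0.33, Ccrl2, a chemerin-binding receptor, at 0.40, Il1f9, an interleukin-1 family cytokine, at 0.53 and Clec4d, a myeloid C-type lectin receptor, at 0.54. Slpi, Ccrl2, Il1f9 and Clec4d lay below the floor in AP control, as Arg1 did. In Cav1-shRNA all 5 neighbours had a smaller difference from AP control than Arg1, between 1.89 for Il1f9 and 2.25 for Slpi. Arg1 ranked 2 of 11433 genes in that comparison, so few genes could lie above it.

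Nearest to Nos2 was Lilrb4a, an inhibitory immunoglobulin-like receptor of myeloid cells, at a distance of 0.028. It was at 10.41 in Cav1-shRNA, 11.70 in cavtratin and 9.53 in AP control. Mir3088 followed at 0.044, Mrgpra2a, a Mas-related G protein-coupled receptor, at 0.072, 4833407H14Rik, an unnamed RIKEN transcript, at 0.082 and Il1r2, the decoy receptor of interleukin-1, at 0.10. The differences from AP control of these 5 lay between 0.85 and 0.97 in Cav1-shRNA and between 2.13 and 2.29 in cavtratin. Mir3088, at 5.94 in Cav1-shRNA and 5.05 in AP control, and Il1r2, at 6.47 and 5.62, reached the floor in cavtratin only. In AP control 4833407H14Rik was also below it, at 5.85. With 3 arrays and 1 control shared by all, such likeness describes these arrays only.

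**Figure D5:**
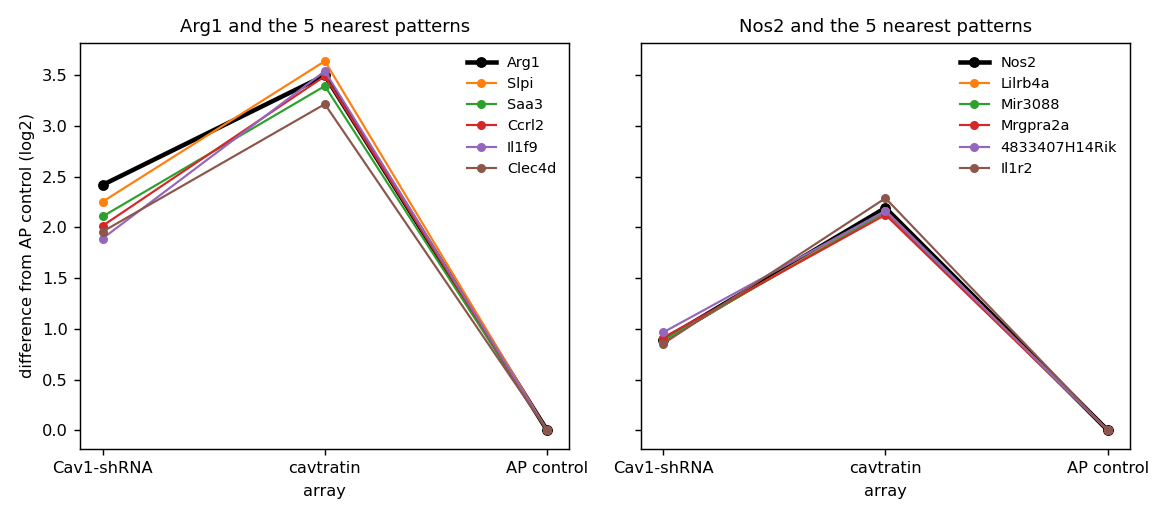
Difference from AP control on the log2 scale (vertical axis) in the 3 arrays (horizontal axis) for Arg1 and Nos2 (black) and the 5 genes with the nearest pattern of each (colours), with lines that join the values of one gene. Arg1 lies above its 5 neighbours in Cav1-shRNA at 2.42, and Nos2 runs within 0.10 of its neighbours.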

How the data were processed

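Retinal RNA of 3 groups was measured on 3 arrays. The deposited values were read as log2 expression; the log base was inferred from their range, while how the authors summarised and normalized the probes is not given in the sources used here. Samples were grouped by their titles. Of 41345 probe sets, 23521 had 1 gene symbol in a platform annotation that can be old, 1814 had several and 16010 were not listed there; 23328 matched RefSeq (GRCm38.p6) by Entrez identifier. The probe set with the highest mean stood for a gene. Differences were taken between deposited log2 values, with no test. Ties were equal to within 1e-09. Precision is limited by the number of arrays.

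The genes and the 8 pathway and 9 cell type lists were chosen with earlier results of these data known. Named were the 10 genes, Cav1 and the 5 nearest patterns of each called gene. Called list genes were named where a list held at most 6 in a comparison. Up to 3 list genes with the largest differences at or above the floor were added. Endothelial, amacrine, Muller glia and rod markers were only summarised. Other list genes, such as those exactly equal in all arrays or below the floor, were named after their values were seen. Of 6 red blood cell markers 1 was measured, Slc4a1, below the floor in all arrays. Planned protein and promoter comparisons were not run. Alternatives were 3 scalings (median, quantile, loess with a span of 0.3), other probe set rules, floors and thresholds. Python 3.11.15, numpy 2.4.6, pandas 2.3.3 and statsmodels 0.14.6 were used.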

Additional observations from a re-analysis of the deposited data

How the results depend on the processing

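Under 3 other scalings and 2 other probe set rules, 150 member differences were recomputed. None changed its call or moved by more than 0.058, the shift that centring gave every gene of Cav1-shRNA against AP control. Each member had 1 probe set, so the probe set rules could not change its values and only the scalings could. Arg1 ranged over 3.50 to 3.51 in cavtratin and 2.42 to 2.48 in Cav1-shRNA, and Nos2 over 2.19 to 2.20 and 0.89 to 0.95, each against AP control. Members that were equal took values between −0.0058 and 0.058. Counts of called members depended on the limits in 3 cases. In Cav1-shRNA against AP control 2 were higher at 1.5-fold, Nos2 being added, and 0 with the floor at the 75th percentile, 8.20, which lies above the 8.12 of Arg1. In Cav1-shRNA against cavtratin 0 were lower at 3-fold.

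Counts over all genes moved with threshold and floor. In cavtratin against AP control, 251 higher and 27 lower were called at 1.5-fold, 86 and 5 at 3-fold, and 81 and 5 with the floor at 8.20, against 156 and 11. In Cav1-shRNA against AP control these were 103 and 42, 9 and 6, and 16 and 5, against 39 and 14. In Cav1-shRNA against cavtratin they were 11 and 175, 1 and 26, and 2 and 54, against 4 and 90. A floor at the 25th percentile or none kept every count within 1.5 times. No paired analysis was possible because each group had 1 array. Arg1 and Nos2 lay below the floor in AP control, where low signal can shorten a fold and noise of 1 array can change it either way.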
